A study of Mus musculus with 16 samples.

Results

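Transcripts of 10 secreted acute phase proteins and proteins that sense bacterial lipopolysaccharide (LPS) were followed in mouse liver. They were Hp, Hpx, Orm1, Orm2, Orm3, Crp, Lbp, Cd14, Serpina3m and Serpina3n, taken by gene symbol from the 40840 genes of the deposited table of read counts. All 10 were in the table and all 10 passed the filter on low counts, as did 14484 genes in all. The study sequenced poly(A)-selected liver RNA of male C57BL/6J mice of 12 to 16 weeks that had been injected intraperitoneally with the platinum drug oxaliplatin, a DNA crosslinking agent used against cancer, at a dose of 12 mg/kg. The first group was Cry1-/- Cry2-/- mice (CryDKO) dosed at circadian time 16 (CT16), and the second was CryDKO mice dosed at CT8. The third group was wild-type (WT) mice dosed at CT16, and the fourth was WT mice dosed at CT8, with 4 libraries in each group. CryDKO animals lack both cryptochromes, repressors of the circadian clock, in the whole body and were bred from heterozygous parents. Mice of all 4 groups had been moved from a light-dark cycle to constant darkness before dosing and had food at all times. No untreated group was analysed here, so no value shows an effect of oxaliplatin itself. When livers were collected is not stated in the sources used here, so dosing time and the phase of the clock at collection cannot be told apart. The submitters' text speaks of dosing on 3 days in one place and of a single dose in another. The labels do not say whether each library of a group is a different animal, and so each p measured the spread between these libraries, which may be technical.

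The acute phase response is the change in what hepatocytes secrete after infection or injury. Interleukin-6 acts through the receptor subunits Il6ra and Il6st, Janus kinases and the transcription factor STAT3, and interleukin-1 and tumour necrosis factor act through NF-κB, with C/EBP factors and glucocorticoids adding to both. Positive acute phase genes rise in this response and negative ones, such as albumin, fall. Haptoglobin (Hp) binds free haemoglobin and hemopexin (Hpx) binds free haem, so that both can be cleared. Orosomucoids (Orm1, Orm2, Orm3) carry lipophilic ligands in plasma, and C-reactive protein (Crp) is a pentraxin that in the mouse responds only modestly to inflammation. LPS-binding protein (Lbp) hands LPS to Cd14, which passes it to the Tlr4 and Ly96 receptor complex. Serpina3m and Serpina3n belong to the mouse counterparts of the human protease inhibitor alpha-1-antichymotrypsin.

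Values are CPM, the reads of a gene relative to all reads of its library, after scaling with edgeR's TMM factors (trimmed mean of M values). Counted reads per library ranged from 18083916 to 29934138. The 10 genes took 2.53 to 3.62% of all reads in CryDKO at CT16, 2.45 to 5.18% in CryDKO at CT8, 2.78 to 3.55% in WT at CT16 and 1.86 to 2.46% in WT at CT8. Cry2 counts were lower in the libraries labelled CryDKO, with 24.1 to 30.3 CPM at CT16 and 23.1 to 33.3 CPM at CT8, against 44.2 to 58.9 CPM in WT at CT16 and 39.9 to 53.0 CPM in WT at CT8. Cry1 counts were instead higher under that label, 24.3 to 29.0 CPM in CryDKO at CT16 and 20.5 to 27.1 CPM in CryDKO at CT8, against 5.14 to 7.38 and 9.22 to 15.9 CPM in WT at the same times. Reads outside a deleted part of a gene are counted too, and the deleted part was not analysed here, so CryDKO stands for the label throughout. Of 8 hepatocyte markers all had reads in every library.

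Promoters of 5 of the 10 genes were in the RefSeq table of mouse build GRCm38.p6, each as a window of 300 bases from 250 before the gene's start to 50 after it. The reads were counted on the newer build GRCm39, so these windows serve as sequence only. All 5 that were found are shown. Of their genes Hpx, Crp and Serpina3n were higher in CryDKO than in WT at CT8, and Orm2 and Orm3 were not called. No window was available for Hp, Lbp, Cd14 and Serpina3m, which were also higher there, or for Orm1, which was not called. Capitals mark matches to C/EBP (TTGCNNAA), NF-κB (GGNNTTTCC), the type II interleukin-6 element (CTGGGAA) and the TATA box (TATAAA), searched on both strands.
Hpx, chr7:105600067-105600366, minus strand: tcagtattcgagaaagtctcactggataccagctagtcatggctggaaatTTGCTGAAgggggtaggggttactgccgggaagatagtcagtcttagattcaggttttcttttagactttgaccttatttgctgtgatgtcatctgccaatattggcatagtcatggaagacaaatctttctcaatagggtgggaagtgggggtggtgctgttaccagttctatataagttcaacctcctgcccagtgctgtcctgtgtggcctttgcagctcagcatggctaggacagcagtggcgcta
Crp, chr1:172697806-172698105, plus strand: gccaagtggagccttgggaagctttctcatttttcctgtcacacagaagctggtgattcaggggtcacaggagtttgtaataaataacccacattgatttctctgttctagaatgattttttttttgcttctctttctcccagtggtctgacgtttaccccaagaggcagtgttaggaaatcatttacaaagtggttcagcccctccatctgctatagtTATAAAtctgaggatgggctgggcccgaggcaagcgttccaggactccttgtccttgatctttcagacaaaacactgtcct
Serpina3n, chr12:104406458-104406757, plus strand: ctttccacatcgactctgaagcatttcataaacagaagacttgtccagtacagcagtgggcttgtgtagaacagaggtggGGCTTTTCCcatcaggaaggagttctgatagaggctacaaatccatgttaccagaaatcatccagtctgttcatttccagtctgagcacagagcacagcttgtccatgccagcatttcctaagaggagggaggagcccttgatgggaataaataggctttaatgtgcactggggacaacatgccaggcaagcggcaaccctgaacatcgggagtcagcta
Orm2, chr4:63362199-63362498, plus strand: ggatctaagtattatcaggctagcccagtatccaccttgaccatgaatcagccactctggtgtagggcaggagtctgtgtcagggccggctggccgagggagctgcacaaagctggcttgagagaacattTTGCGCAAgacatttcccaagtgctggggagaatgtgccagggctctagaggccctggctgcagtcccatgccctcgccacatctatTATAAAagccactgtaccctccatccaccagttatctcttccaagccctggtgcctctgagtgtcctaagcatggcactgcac
Orm3, chr4:63355908-63356207, plus strand: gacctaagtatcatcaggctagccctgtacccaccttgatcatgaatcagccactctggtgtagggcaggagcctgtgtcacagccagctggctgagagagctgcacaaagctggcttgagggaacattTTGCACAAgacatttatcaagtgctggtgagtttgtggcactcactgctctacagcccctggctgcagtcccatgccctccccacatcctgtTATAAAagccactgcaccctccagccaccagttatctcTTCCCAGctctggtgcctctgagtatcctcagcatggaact
A C/EBP match stood in 3 of the 5 windows, as TTGCTGAA in Hpx, TTGCGCAA in Orm2 and TTGCACAA in Orm3, and in 10.8% of all 32817 promoter windows of the table. The NF-κB letters were found in Serpina3n only, as GGCTTTTCC, and in 5.83% of all windows. The interleukin-6 element was found in Orm3 only and in 11.1% of all windows, and TATAAA in Orm2, Orm3 and Crp and in 13.6%. The D-box TTATGNAA was found in Serpina3n (3.39% of all windows), and the glucocorticoid half-site TGTTCT in Orm2, Crp and Serpina3n (19%). None of the 5 windows held the STAT palindrome TTCNNNGAA (8.29% of all windows) or the E-box CACGTG (7.15%). No 2 of these matches overlapped apart from TTGCGCAA of Orm2, which reads the same motif on both strands. Orm2 and Orm3 aligned over 295 bases, of which 263 were identical (89.2%), and the C/EBP matches of the pair differed within their free positions. A match describes letters, not binding, and no binding was measured here.

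Across the 4 groups, WT at CT8 had the lowest mean for 9 of the 10 genes, and WT at CT16 for Cd14. Per exonic length, in RPKM (CPM divided by the length of all exons, from GENCODE M21), Hpx and Hp were the most abundant of the 10 in WT at CT8, at 4571 ± 569 and 4338 ± 701 RPKM (SD, n = 4). Orm1 followed at 2665 ± 531 RPKM, then Serpina3n at 645 ± 184, Orm2 at 289 ± 86.0 and Serpina3m at 234 ± 38.3 RPKM. Crp stood at 72.4 ± 7.73, Lbp at 23.2 ± 2.96 and Orm3 at 19.97 ± 6.35 RPKM, and Cd14 was lowest at 0.611 ± 0.132 RPKM. By mean log2 CPM over all libraries Hpx was the 5th and Hp the 6th highest of the tested genes, and Cd14 held rank 10272. Hp and Hpx are thus the members measured with the most reads and Cd14 the one with the fewest, 20 to 35 reads per library in WT at CT8.

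**Figure D1:**
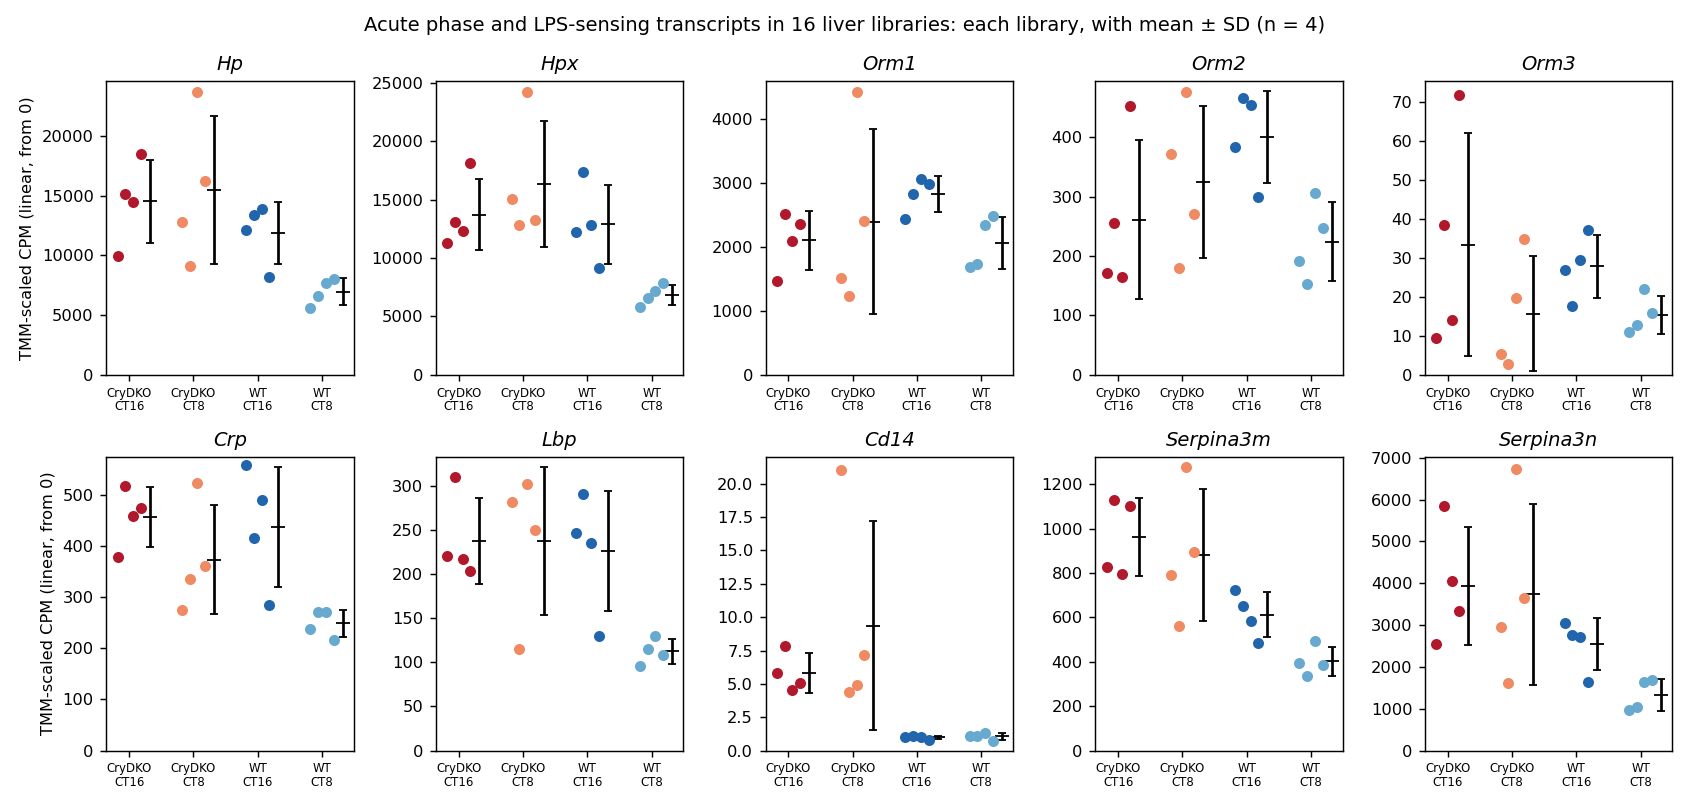
CPM of each of the 10 genes (vertical axes, linear and starting at 0) in the 4 groups, with each library as a point and the mean with its SD (n = 4). WT at CT8 has the lowest mean in 9 panels, and in the Cd14 panel all 8 CryDKO libraries lie above all 8 WT libraries.

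Both binders of haem and haemoglobin were more abundant in CryDKO than in WT livers at CT8 and did not pass the test by genotype at CT16. Hp had 9987, 15161, 14447 and 18495 CPM in the CryDKO libraries at CT16 and 12836, 9094, 23689 and 16267 CPM in those at CT8. In WT livers Hp had 12098, 13385, 13864 and 8181 CPM at CT16 and 5563, 6578, 7679 and 8049 CPM at CT8. All CryDKO libraries at CT8 lay above all WT libraries at CT8, and WT at CT16 also lay above WT at CT8. At CT8 Hp was higher in CryDKO by 1.15 ± 0.27 on the log2 scale (SE), 2.22-fold, by the quasi-likelihood test of edgeR (Benjamini-Hochberg adjusted p = 0.00285). At CT16 its change by genotype was 0.29 ± 0.27 (edgeR, Benjamini-Hochberg adjusted p = 0.479), with overlapping groups.

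Hpx had 11306, 13093, 12316 and 18118 CPM in the CryDKO libraries at CT16 and 15060.2, 12795, 24232 and 13257 CPM in those at CT8. In WT livers Hpx had 12209, 17362, 12842 and 9113 CPM at CT16 and 5843, 6561, 7161 and 7845 CPM at CT8. The groups fell in the same pattern as for Hp, with WT at CT8 below the libraries of the other 3 groups. Hpx was higher in CryDKO at CT8 by 1.25 ± 0.25, or 2.38-fold, with Benjamini-Hochberg adjusted p = 0.000797 by the quasi-likelihood test of edgeR. By genotype at CT16 the change was 0.09 ± 0.24 (edgeR, Benjamini-Hochberg adjusted p = 0.8287). Between times in WT the log2 change was 0.91 ± 0.25 for Hpx and 0.77 ± 0.27 for Hp, and neither passed the threshold (edgeR, Benjamini-Hochberg adjusted p = 0.0512 and 0.089), although the groups did not overlap. Hpx was called under 5 of the 7 other settings, DESeq2 and voom among them (adjusted p 0.00454 to 0.0602), and Hp under 1 of the 7, DESeq2 (adjusted p 0.0311 to 0.142). Without WT library 8 edgeR called both. Within libraries the reads of Hp were 88.3 to 117% of those of Hpx in CryDKO at CT16, 71.1 to 123% in CryDKO at CT8, 77.1 to 108% in WT at CT16 and 95.2 to 107% in WT at CT8.

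Of 6 genes that take up or break down what these proteins carry, 1 rose and 0 fell in CryDKO at CT8, and 1 rose and 0 fell at CT16. Of all genes tested 18.7% were called higher and 20.3% lower at CT8, and 9% higher and 9.15% lower at CT16. The called gene was Hmox1, haem oxygenase, which opens the haem ring, in both cases. Hmox1 had 10.1, 16.4, 29.2 and 17.3 CPM in CryDKO at CT16 and 56.5, 13.3, 32.3 and 20.5 CPM in CryDKO at CT8, against 7.14, 7.27, 6.65 and 10.1 CPM in WT at CT16 and 8.82, 11.7, 10.6 and 13.55 CPM in WT at CT8. Its log2 change by genotype was 1.46 ± 0.39 at CT8 and 1.23 ± 0.39 at CT16, by the quasi-likelihood test of edgeR with Benjamini-Hochberg adjusted p = 0.00939 and 0.0439, and the groups overlapped at both times. Cd163, the macrophage receptor for haptoglobin bound to haemoglobin, did not pass, with -0.60 ± 0.50 at CT8 and 0.99 ± 0.49 at CT16. Blvrb, a biliverdin reductase, had -0.18 ± 0.15 at CT8 and 0.42 ± 0.15 at CT16, and Slco2b1, an organic anion transporter, 0.35 ± 0.18 and -0.32 ± 0.18, and neither passed (edgeR, Benjamini-Hochberg adjusted p = 0.357, 0.0581, 0.127 and 0.224).

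None of the 3 orosomucoid genes was called in any of the 5 comparisons by the main edgeR test of all 16 libraries. Orm1 had 1467, 2512, 2091 and 2367 CPM in the CryDKO libraries at CT16 and 1522, 1239, 4427 and 2416 CPM in those at CT8. In WT livers Orm1 had 2443, 2831, 3067 and 2989.8 CPM at CT16 and 1688, 1738, 2346 and 2489 CPM at CT8. CryDKO at CT8 held both the highest and the lowest library of all 16, so the group's range covered the other groups. Its log2 change by genotype was 0.22 ± 0.30 at CT8 and -0.43 ± 0.30 at CT16 (edgeR, Benjamini-Hochberg adjusted p = 0.586 and 0.334).

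Orm2 had 171, 256, 165 and 452 CPM in the CryDKO libraries at CT16 and 372, 181, 476 and 271 CPM in those at CT8. In WT livers Orm2 had 383, 465, 454 and 299 CPM at CT16 and 192, 152, 305 and 248 CPM at CT8. At CT16 the CryDKO libraries averaged 261 ± 134 CPM and the WT libraries 400.2 ± 76.6 CPM (SD, n = 4 each), with overlap. The log2 change of Orm2 was 0.54 ± 0.33 by genotype at CT8 and -0.62 ± 0.33 at CT16, and neither passed (edgeR, Benjamini-Hochberg adjusted p = 0.21 and 0.208). Between times in WT its change was 0.84 ± 0.33 (edgeR, Benjamini-Hochberg adjusted p = 0.127), and it was called under 1 of the 8 other settings, the fit of only the groups compared (Benjamini-Hochberg adjusted p = 0.0423 by edgeR, over these settings 0.0423 to 0.274). The upper value is that of the summed orosomucoid reads, not of Orm2 alone. Without CryDKO library 14 Orm2 was called lower by genotype at CT16.

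The least abundant orosomucoid had the widest spread of the 10 genes within both CryDKO groups. Orm3 had 9.35, 38.6, 13.99 and 71.9 CPM in the CryDKO libraries at CT16 and 5.40, 2.79, 19.9 and 34.8 CPM in those at CT8. In WT livers Orm3 had 26.9, 17.8, 29.6 and 37.1 CPM at CT16 and 10.9, 12.7, 22.1 and 15.99 CPM at CT8. In CryDKO the highest library exceeded the lowest 7.69-fold at CT16 and 12.5-fold at CT8, against 2.09-fold and 2.02-fold in WT at the same times. The SE of its log2 changes was accordingly large, with 0.023 ± 0.74 by genotype at CT8, 0.27 ± 0.72 by genotype at CT16, 1.10 ± 0.74 between times in CryDKO and 0.85 ± 0.73 between times in WT. Orm1, Orm2 and Orm3 are close copies, and how the authors' counting assigned reads shared between them is not stated in the sources used here, so their split is uncertain. With their reads summed to 1 feature the log2 change was 0.25 ± 0.29 by genotype at CT8 and -0.44 ± 0.29 at CT16, and neither passed (edgeR, Benjamini-Hochberg adjusted p = 0.514 and 0.305). Reads of Orm2 were 7.91 to 19.1% of those of Orm1 in CryDKO at CT16, 10.8 to 24.5% in CryDKO at CT8, 10.01 to 16.4% in WT at CT16 and 8.76 to 13.01% in WT at CT8.

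Crp was higher in WT at CT16 than in WT at CT8, and higher in CryDKO than in WT at CT8. Crp had 379, 518, 458 and 474 CPM in the CryDKO libraries at CT16 and 274, 336, 523 and 361 CPM in those at CT8. In WT livers Crp had 558, 416, 490.3 and 285 CPM at CT16 and 239, 272, 270.1 and 216 CPM at CT8. The 4 WT libraries at CT8 were close together and lay below all other libraries, of which CryDKO library 9 at CT8 came nearest. Library numbers are those that the deposited columns carry. Between times in WT the change was 0.81 ± 0.21, or 1.75-fold (the quasi-likelihood test of edgeR, Benjamini-Hochberg adjusted p = 0.0455). This call was kept under 5 of the 7 other settings and lost with library size alone or without the robust option (adjusted p 0.00618 to 0.0648 over the settings), and it was lost when any 1 of WT libraries 1 to 7 or CryDKO libraries 12, 13 and 16 was left out. By genotype at CT8 the change was 0.58 ± 0.21, or 1.5-fold (the quasi-likelihood test of edgeR, Benjamini-Hochberg adjusted p = 0.0318). The call by genotype was lost when libraries were scaled by their size alone, which gave 0.22, and when any 1 of libraries 1, 4 or 15 was left out. At CT16 the change by genotype was 0.064 ± 0.21 (edgeR, Benjamini-Hochberg adjusted p = 0.856).

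Lbp, which first binds LPS in plasma, was higher in CryDKO than in WT at CT8 and in WT at CT16 than in WT at CT8. Lbp had 221, 310.0, 217 and 204 CPM in the CryDKO libraries at CT16 and 281, 115, 302 and 250.2 CPM in those at CT8. In WT livers Lbp had 246, 290.4, 235 and 130.1 CPM at CT16 and 95.3, 116, 129.6 and 109 CPM at CT8. CryDKO library 10 at CT8 lay inside the range of WT at CT8, and the other 3 CryDKO libraries at that time lay above it. By genotype at CT8 Lbp was 2.11-fold higher in CryDKO, a log2 change of 1.08 ± 0.26 (the quasi-likelihood test of edgeR, Benjamini-Hochberg adjusted p = 0.0037). Between times in WT it was 2.01-fold higher at CT16, by 1.01 ± 0.26 (the quasi-likelihood test of edgeR, Benjamini-Hochberg adjusted p = 0.0472), and the groups did not overlap. The call between times was kept under 5 of the 7 other settings and lost with library size alone or without the robust option (adjusted p 0.00698 to 0.0766 over the settings), as it was without any 1 of WT libraries 1 to 7 or CryDKO libraries 11, 13 and 16. At CT16 the change by genotype was 0.076 ± 0.26 (edgeR, Benjamini-Hochberg adjusted p = 0.863).

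Cd14, the co-receptor that takes LPS from Lbp, had the largest change by genotype of the 10 genes at both times. Cd14 had 5.82, 7.87, 4.51 and 5.07 CPM in the CryDKO libraries at CT16 and 21.0, 4.403, 4.92 and 7.14 CPM in those at CT8. In WT livers Cd14 had 1.03, 1.08, 1.03 and 0.802 CPM at CT16 and 1.10, 1.08, 1.30 and 0.750 CPM at CT8. All 8 CryDKO libraries lay above all 8 WT libraries, and library 9 stood apart with 21.0 CPM. At CT8 Cd14 was 8.84-fold higher in CryDKO, a log2 change of 3.14 ± 0.41, and at CT16 5.9-fold, a log2 change of 2.56 ± 0.41 (the quasi-likelihood test of edgeR, Benjamini-Hochberg adjusted p = 4.73e-05 and 0.00056). Without library 9 the change at CT8 was 2.40 and was called as well. WT libraries held 23 to 30 Cd14 reads at CT16 and 20 to 35 at CT8, so the WT level rests on few reads. Between times the change was -0.69 ± 0.37 in CryDKO and -0.10 ± 0.43 in WT, and neither passed (edgeR, Benjamini-Hochberg adjusted p = 0.784 and 0.895).

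Cd14 is made by macrophages, monocytes and neutrophils and, in inflamed mouse liver, by hepatocytes. In bulk liver, fewer cells of a type and less RNA per cell cannot be told apart. The summed level of 12 Kupffer cell and macrophage markers was 129 to 223 CPM in CryDKO at CT16 and 82.5 to 199.9 CPM in CryDKO at CT8, against 33.2 to 123 CPM in WT at CT16 and 68.4 to 100.5 CPM in WT at CT8, and all 12 had reads in every library. At CT16 the CryDKO libraries lay above the WT libraries for this sum, and at CT8 the genotypes overlapped. Of the 12 markers 2 were called higher and 0 lower by genotype at CT8, and 5 higher and 0 lower at CT16. Of all genes 18.7% were called higher at CT8 and 9% at CT16. The log2 change was above 0 in 9 of the 12 at CT8 and in all 12 at CT16, with medians of 0.52 and 1.17. For 6 monocyte markers, 4 of which had reads in every library, the sums were 13.98 to 28.4 CPM and 14.1 to 31.7 CPM in CryDKO at CT16 and CT8, against 6.84 to 28.2 CPM and 12.6 to 16.5 CPM in WT. For 11 neutrophil markers they were 1.06 to 5.65 CPM and 2.11 to 11.2 CPM in CryDKO, against 0.619 to 2.79 CPM and 1.43 to 5.38 CPM in WT at CT16 and CT8. Of these 11, Mpo was at 0 reads in all 16 libraries, and 2, S100a8 and S100a9, had reads in every library. Library 9, the highest of the 16 for Cd14, was also the highest for the sums of neutrophil markers at 11.2 CPM and monocyte markers at 31.7 CPM. Stellate cell and fibroblast markers, at 263 CPM, were highest there too. Among the monocyte markers Lyz2 had the highest level, a median of 12.5 CPM over all libraries, while Ly6c2, Ccr2 and Cx3cr1 reached at most 0.523 CPM. The T, NK and B cell sum was 2.88 CPM in library 9 and 2.83 CPM in library 10, and 0 of those 8 genes passed the filter on low counts. Library 9 was the highest of its group for Kupffer cell and macrophage markers at 199.9 CPM and the lowest of its group for hepatocyte markers at 96217 CPM. The part of these cell types in the Cd14 result was not tested.

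**Figure D2:**
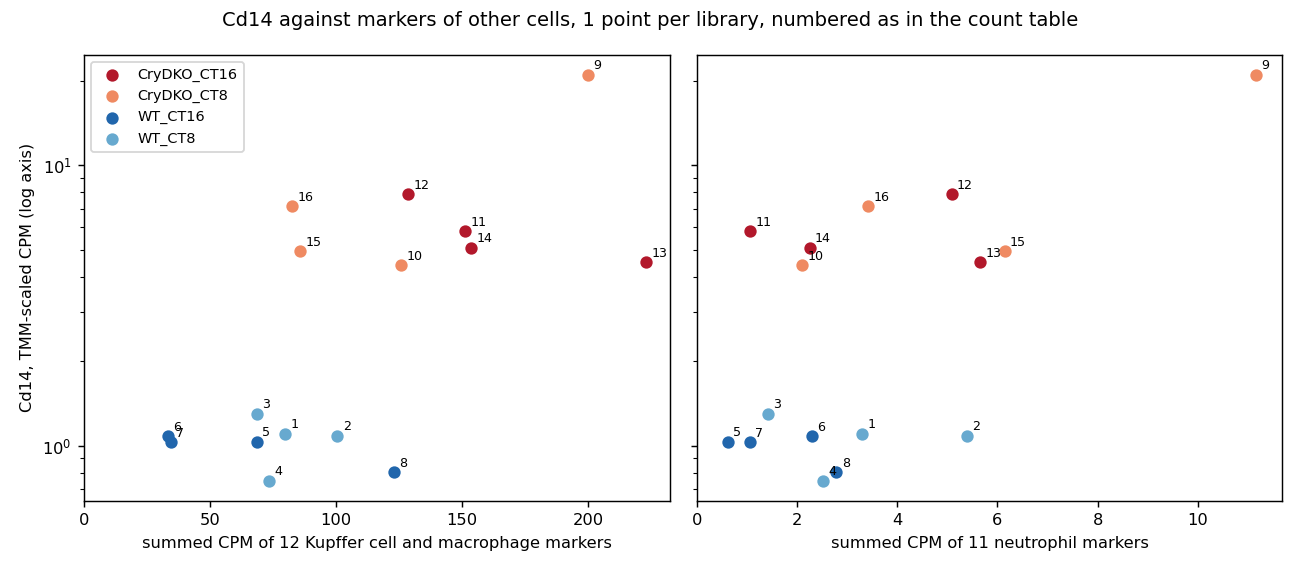
Cd14 in CPM (vertical log axis) against the summed CPM of Kupffer cell and macrophage markers and of neutrophil markers, 1 point per library, coloured by group. The 8 CryDKO libraries lie above the 8 WT libraries on the Cd14 axis, the Kupffer cell sums of CryDKO and WT at CT16 do not overlap while those at CT8 do, and library 9 has the highest value of both Cd14 and the neutrophil sum, as it has of the monocyte sum, which is not plotted.

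Downstream of Cd14, 11 of 13 genes of the LPS receptor complex and its adaptors were tested. In CryDKO at CT8, 3 rose and 0 fell, and at CT16 1 rose and 1 fell. Of all genes tested 18.7% were called higher and 20.3% lower at CT8, and 9% higher and 9.15% lower at CT16. Ticam1, the adaptor TRIF, rose by 1.29 ± 0.21 at CT8 with groups that did not overlap (the quasi-likelihood test of edgeR, Benjamini-Hochberg adjusted p = 0.000167). Tollip, an inhibitor of the pathway, rose by 0.42 ± 0.16 at CT8, and the kinase Irak4 by 0.39 ± 0.15 at CT8 and 0.50 ± 0.15 at CT16 (edgeR, Benjamini-Hochberg adjusted p = 0.0435, 0.0406 and 0.0224). Ly96, the subunit of the receptor that binds LPS, had 1.29, 1.42, 1.08 and 1.79 CPM in CryDKO at CT16 against 3.05, 2.88, 3.16 and 2.75 CPM in WT at CT16. Every CryDKO library lay below every WT library there, with a log2 change of -1.08 ± 0.27 (the quasi-likelihood test of edgeR, Benjamini-Hochberg adjusted p = 0.00871). Tlr4 itself was low, 1.10 ± 0.509 CPM in CryDKO and 0.601 ± 0.325 CPM in WT at CT16 (SD, n = 4 each), and its log2 change by genotype was 0.093 ± 0.45 at CT8 and 0.86 ± 0.46 at CT16, neither past the threshold. The median log2 change of the 11 genes by genotype was 0.17 at CT8 and 0.23 at CT16.

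Both clade A3 serpins were higher in CryDKO than in WT at CT8. Serpina3m had 826, 1129, 797 and 1102 CPM in the CryDKO libraries at CT16 and 791, 563, 1278 and 893 CPM in those at CT8. In WT livers Serpina3m had 724, 652, 585 and 485 CPM at CT16 and 396, 336, 493 and 386 CPM at CT8. The CryDKO libraries lay above the WT libraries of the same time at CT16 and at CT8. For Serpina3m the log2 change by genotype was 1.13 ± 0.22 at CT8, 2.19-fold, and 0.66 ± 0.22 at CT16, 1.57-fold (the quasi-likelihood test of edgeR, Benjamini-Hochberg adjusted p = 0.000756 and 0.0437). The call at CT16 lay near the threshold and was kept in 6 of 16 fits that left out 1 library each, with log2 changes of 0.55 to 0.75.

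Serpina3n had 2543, 5843, 4055 and 3336 CPM in the CryDKO libraries at CT16 and 2960.1, 1619, 6738 and 3644 CPM in those at CT8. In WT livers Serpina3n had 3051, 2769, 2727 and 1651 CPM at CT16 and 966, 1042, 1634 and 1685 CPM at CT8. CryDKO library 10 at CT8 fell just inside the range of WT at CT8, and the other 3 lay above it. Serpina3n had the largest change at CT8 after Cd14, 1.49 ± 0.36 on the log2 scale or 2.81-fold (the quasi-likelihood test of edgeR, Benjamini-Hochberg adjusted p = 0.00362). At CT16 its log2 change was 0.63 ± 0.35, which did not pass (edgeR, Benjamini-Hochberg adjusted p = 0.223). Between times in WT the log2 change was 0.94 ± 0.35 for Serpina3n and 0.60 ± 0.22 for Serpina3m, and neither passed (edgeR, Benjamini-Hochberg adjusted p = 0.109 and 0.0979), while 2 of the 8 and 1 of the 8 other settings called them (adjusted p 0.0421 to 0.319 and 0.0468 to 0.319). The upper value of both ranges is that of the summed reads of the Serpina3 cluster. Reads of Serpina3n were 303 to 518% of those of Serpina3m in CryDKO at CT16, 288 to 527% in CryDKO at CT8, 341 to 466% in WT at CT16 and 244 to 437% in WT at CT8. Of 9 other genes of the Serpina3 cluster 5 were tested, and 1 of them was called in CryDKO at CT8, Serpina3c, with 1.53 ± 0.52 (the quasi-likelihood test of edgeR, Benjamini-Hochberg adjusted p = 0.0254), where 18.7% of all genes were called higher. Serpina3f, Serpina3g and Serpina3k had 1.37 ± 0.60, 0.39 ± 0.39 and 0.60 ± 0.31 at CT8, which did not pass (edgeR, Benjamini-Hochberg adjusted p = 0.0755, 0.437 and 0.124). These genes are close copies, so reads may be split between them. With reads of all 11 summed, the change by genotype was 0.85 ± 0.29 at CT8 and 0.42 ± 0.29 at CT16 (edgeR, Benjamini-Hochberg adjusted p = 0.0271 and 0.329).

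More of the 10 genes were called by genotype at CT8 than in the other comparisons. There 7 of the 10 genes were higher in CryDKO and 0 lower, where 18.7% of all 14484 genes tested were called higher and 20.3% lower. The median log2 change was 1.10 over the 10 genes and -0.016 over all genes. In 5 of the 10 all CryDKO libraries lay above all WT libraries, as in 18.7% of all genes. The called genes ran from Crp at 1.5-fold to Cd14 at 8.84-fold, and the 3 genes not called were the orosomucoids.

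At CT16 2 of the 10, Cd14 and Serpina3m, were higher in CryDKO and 0 lower, where 9% of all genes were called higher and 9.15% lower. The median log2 change was 0.18 over the 10 genes and -0.006 over all genes. The same 2 genes were those in which all CryDKO libraries lay above all WT libraries, as in 9.65% of all genes. With 1 library left out at a time the count was 1 or 2, Cd14 being called each time, and without CryDKO library 14 Orm2 was called lower, at -1.02.

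In WT, CT16 against CT8, 2 of the 10, Crp and Lbp, were called higher and 0 lower, where 1.24% of all genes were called higher and 1.3% lower. Of the 10 genes 9 had a log2 change above 0, as had 46.4% of all genes, and the exception was Cd14. The median was 0.82 over the 10 genes and -0.040 over all genes. In 4 genes (Crp, Hp, Hpx and Lbp) all libraries at CT16 lay above all libraries at CT8, as in 5.52% of all genes. WT library 8 at CT16 was the lowest of its group for Hp, Hpx, Orm2, Crp, Lbp, Cd14, Serpina3m and Serpina3n, and its TMM factor was 1.20 where the other 3 had 0.921 to 0.955. It was also lowest for the hepatocyte marker sum, at 50913 CPM against 73853 to 88510 CPM. Its sums were highest for Kupffer cell and macrophage markers (123 against 33.2 to 68.4 CPM) and stellate cell and fibroblast markers (161 against 73.0 to 90.7 CPM). Its cholangiocyte sum, 54.4 CPM, lay within the range of the others. The part of this in the calls was not tested. Without library 8, 6 of the 10 genes were called, and without any 1 of the other 7 WT libraries, or CryDKO library 13 or 16, 0 were. The count over all genes swung too, from 0 to 3580 over the 16 fits that left out 1 library, against 367 with all libraries.

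In CryDKO, CT16 against CT8, 0 of the 10 were called by the quasi-likelihood test of edgeR, where 0% of all genes were called, and 0 had an unadjusted p under 0.05, where 6.48% of all genes had. DESeq2 and limma voom also called 0 of the 10. The log2 changes ran from -0.69 for Cd14 to 1.10 for Orm3, with a median of -0.044 over the 10 genes. Whether the change with time differed between the genotypes was tested as an interaction, the change in CryDKO minus the change in WT. It was called for 0 of the 10 genes by edgeR, where 0.0414% of all genes were called, while 4 had an unadjusted p under 0.05, where 13.3% of all genes had. These were Hpx (-1.16 ± 0.35, Benjamini-Hochberg adjusted p = 0.217), Orm2 (-1.15 ± 0.47, 0.31), Lbp (-1.003 ± 0.37, 0.278) and Hp (-0.86 ± 0.38, 0.341), all by the quasi-likelihood test of edgeR. DESeq2 called Hpx, at -1.17, and limma voom called 0, where they called 134 and 1 of all genes. Without WT library 8, edgeR called Hpx and Lbp. Over the 16 fits that left out 1 library, edgeR called 0 to 568 of all genes, against 6 with all libraries. A log2 interaction above 0 was seen in 1 of the 10, Orm3, and in 50.8% of all genes. The time comparison in WT and the genotype comparison at CT8 share the WT libraries at CT8, in which 9 of the 10 genes had their lowest mean.

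**Figure D3:**
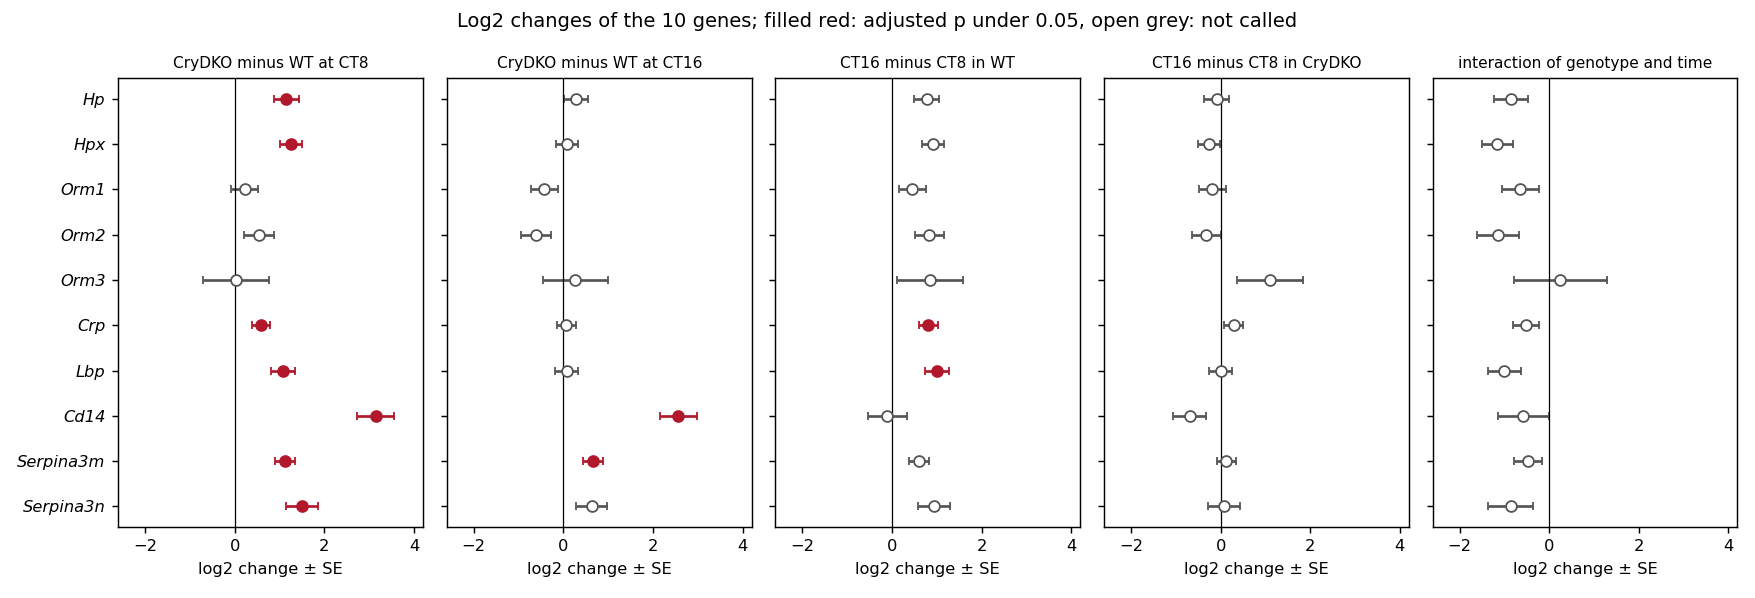
Log2 changes of the 10 genes with their SE in the 4 pairwise comparisons and the interaction, filled where the adjusted p was under 0.05. By genotype at CT8 7 points are filled, by genotype at CT16 2, between times in WT 2, and between times in CryDKO and for the interaction 0.

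The 10 genes were also read library by library. Each library was set against the mean of WT at CT8, gene by gene, on the log2 scale. The median over the 10 genes was 0.67 to 1.39 in the CryDKO libraries at CT16, 0.36 to 1.56 in those at CT8, 0.32 to 0.98 in WT at CT16 and -0.22 to 0.26 in WT at CT8. Library 15 of CryDKO at CT8 was the highest of all by this median and library 10 of the same group the lowest of the 8 CryDKO libraries. Library 15 also had the highest share of reads in the 10 genes. As a description over 16 libraries that share their depth and scaling, the profiles of Hp and Hpx were the closest pair, with a mean absolute difference of 0.16 after each gene was centred on its own mean, and Orm3 and Cd14 the farthest, at 1.61.

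**Figure D4:**
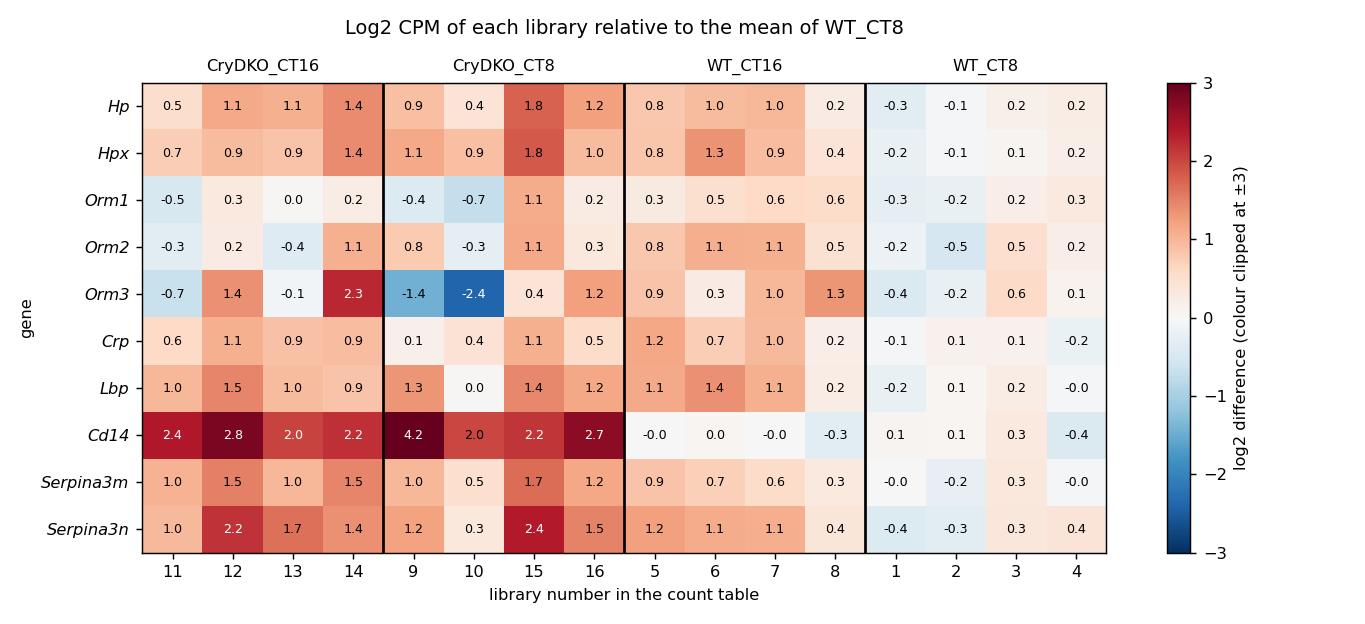
Log2 difference of each library (columns) from the mean of WT at CT8 for each of the 10 genes (rows), in colour, grouped as CryDKO at CT16, CryDKO at CT8, WT at CT16 and WT at CT8. Library 15 is high in most rows, library 10 is low among the CryDKO libraries, and Cd14 is high in all 8 CryDKO libraries.

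By the same measure the genes outside the list whose profiles over the 16 libraries were nearest could be named, among 10261 genes that averaged at least 1 in log2 CPM. For Hp they were Itih3 (0.15), Pid1 (0.17) and Cdk5rap3 (0.18), Itih3 being a heavy chain of the inter-alpha-trypsin inhibitors made in liver. For Hpx they were Psmd13 (0.17), Cdk5rap3 (0.17) and Ano10 (0.18). Crp was nearest to Dnajb11 (0.13), Gne (0.13) and Dnajc3 (0.14), of which Dnajb11 and Dnajc3 encode chaperone partners of the endoplasmic reticulum. For Lbp they were Gnat1 (0.18), Tnfrsf1a (0.19) and Serpinf2 (0.20), Tnfrsf1a being the main receptor of tumour necrosis factor. Serpina3n was nearest to Fgg (0.23), Cyp8b1 (0.25) and Fga (0.26), Fgg and Fga being fibrinogen chains, and Serpina3m to Pcx (0.15), Itm2c (0.16) and Pnp (0.17). For Orm1 they were Cpb2 (0.23), Ttc30b (0.23) and Cradd (0.23), and for Orm2 Eid1 (0.24), Gstm2 (0.28) and Fbxo36 (0.29). Cd14 had more distant neighbours, Ttc39a (0.35), Tspan7 (0.38) and Slc17a4 (0.44), against its own mean absolute deviation of 1.30. Orm3 had the most distant, Csrp3 (0.59), Rarres1 (0.59) and Saa4 (0.61), against its own 0.87.

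The signals that drive acute phase genes were looked at next. Of 16 genes of the interleukin-6, interleukin-1 and tumour necrosis factor systems 14 were tested, and 3 rose and 2 fell in CryDKO at CT8, 2 rose and 0 fell at CT16. The shares of all genes called were 18.7% higher and 20.3% lower at CT8, and 9% and 9.15% at CT16. DESeq2 called 3 higher and 1 lower at CT16, and limma voom called 0, so the calls of Tnfrsf1a and Il1b there were lost with voom. Il6 itself had 0 to 5 reads per library and, like Tnf, did not pass the filter on low counts. Tnfrsf1a had 131, 205, 137 and 144 CPM in CryDKO at CT16 and 165, 106, 143 and 153 CPM in CryDKO at CT8, against 124, 109.9, 116 and 71.6 CPM in WT at CT16 and 61.5, 68.7, 79.8 and 60.2 CPM in WT at CT8. It rose by 1.07 ± 0.19 at CT8 and 0.55 ± 0.19 at CT16 with no overlap at either time (the quasi-likelihood test of edgeR, Benjamini-Hochberg adjusted p = 0.000332 and 0.047). Il6ra, the binding subunit of the interleukin-6 receptor, rose by 0.59 ± 0.18 and Jak1, its kinase, by 0.49 ± 0.14 at CT8 (edgeR, Benjamini-Hochberg adjusted p = 0.014 and 0.00917). Lifr, the receptor of leukaemia inhibitory factor, fell by 0.73 and Il1a by 1.36 at CT8 (edgeR, Benjamini-Hochberg adjusted p = 0.00179 and 0.0238). Il1b rose by 1.37 ± 0.47 at CT16, with 1.57 ± 0.693 CPM in CryDKO and 0.604 ± 0.219 CPM in WT, which overlapped (edgeR, Benjamini-Hochberg adjusted p = 0.0466).

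Among 12 transcription factors of acute phase genes, 7 rose and 1 fell in CryDKO at CT8 and 3 rose and 0 fell at CT16, with median log2 changes of 0.59 and 0.39. Of all genes 18.7% were called higher and 20.3% lower at CT8, and 9% higher and 9.15% lower at CT16. The factor that fell at CT8 had a log2 change of -0.66. Cebpb had 372, 565, 445 and 491 CPM in CryDKO at CT16 and 491, 483, 541 and 552 CPM in CryDKO at CT8, against 286, 364, 296 and 225 CPM in WT at CT16 and 340.1, 278, 284 and 217 CPM in WT at CT8. The groups did not overlap at either time, and Cebpb rose by 0.88 ± 0.18 at CT8 and 0.68 ± 0.18 at CT16 (the quasi-likelihood test of edgeR, Benjamini-Hochberg adjusted p = 0.000908 and 0.0127). Cebpd rose by 1.03 ± 0.22, Hnf4a, a hepatocyte master factor, by 0.84 ± 0.17, and the NF-κB subunit Rela by 0.73 ± 0.16 at CT8 (edgeR, Benjamini-Hochberg adjusted p = 0.00154, 0.000955 and 0.00137). At CT16 Hnf4a rose as well, by 0.70 ± 0.17 (edgeR, Benjamini-Hochberg adjusted p = 0.00807). Cebpd and Rela had 0.63 ± 0.22 and 0.33 ± 0.15 there and did not pass (edgeR, Benjamini-Hochberg adjusted p = 0.0518 and 0.139). Foxa2, a pioneer factor of hepatocytes, rose by 0.83 ± 0.23 at CT16, with groups that did not overlap, and had 0.018 ± 0.23 at CT8 (edgeR, Benjamini-Hochberg adjusted p = 0.0181 and 0.957). In WT between times 1 of the 12 was called, where 1.24% of all genes were called higher, Cebpa, at 0.75 ± 0.20 (edgeR, Benjamini-Hochberg adjusted p = 0.0467). Of 9 targets of the glucocorticoid receptor 3 rose and 0 fell in CryDKO at CT8 and 2 rose and 0 fell at CT16, beside the same shares of all genes. Their median log2 change was 0.58 at CT8, with 7 of the 9 above 0, and -0.22 at CT16, with 3 of the 9 above 0. Fkbp5, a feedback gene of that receptor, rose by 1.41 ± 0.27 at CT8 and 0.88 ± 0.26 at CT16, and Per1, also a clock gene, by 0.60 ± 0.19 and 0.68 ± 0.19 (edgeR, Benjamini-Hochberg adjusted p = 0.000737, 0.0284, 0.0177 and 0.0193). Tat, a tyrosine-degrading enzyme, rose by 1.03 ± 0.33 at CT8 and had -0.22 ± 0.33 at CT16 (edgeR, Benjamini-Hochberg adjusted p = 0.0208 and 0.671). Klf9, a transcription factor of the same list, had 0.13 ± 0.25 at CT8 and -0.60 ± 0.25 at CT16 and did not pass (edgeR, Benjamini-Hochberg adjusted p = 0.704 and 0.0953).

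Other acute phase genes did not all go with these 10. Of 21 other positive acute phase genes 10 rose and 1 fell in CryDKO at CT8 and 3 rose and 3 fell at CT16, with median log2 changes of 0.85 and 0.08. Of all genes tested 18.7% were called higher and 20.3% lower at CT8, and 9% higher and 9.15% lower at CT16. The fibrinogen chain Fga rose by 1.22 ± 0.27 at CT8 and 0.89 ± 0.27 at CT16, and complement factor Cfb by 0.94 ± 0.17 and 0.63 ± 0.17 (edgeR, Benjamini-Hochberg adjusted p = 0.00194, 0.0278, 0.000441 and 0.0163). Fgb, another fibrinogen chain, rose by 1.22 ± 0.27 at CT8 and 0.87 ± 0.27 at CT16 (edgeR, Benjamini-Hochberg adjusted p = 0.00174 and 0.0294). Saa3, a serum amyloid A gene, fell at both times, by 0.98 at CT8 and 1.52 at CT16 (edgeR, Benjamini-Hochberg adjusted p = 0.000427 and 2.51e-05). In WT, CT16 against CT8, 21 of the 21 had a log2 change above 0, as had 46.4% of all genes, with a median of 0.71. None of the 21 was called there by edgeR, where 1.24% of all genes were called higher. DESeq2 called 11 of the 21 higher and limma voom 2. Over all genes DESeq2 called 827 higher and limma voom 318, against 179 by edgeR.

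Negative acute phase genes, which fall in the classical response, were in part higher in CryDKO at CT8, as Hp and Hpx were. Of 11 tested, 7 rose and 0 fell in CryDKO at CT8 and 2 rose and 0 fell at CT16, with median log2 changes of 0.71 and 0.30, where 18.7% of all genes were called higher at CT8 and 9% at CT16. Albumin, Alb, had 96989.5, 75003, 66061 and 115461 CPM in CryDKO at CT16 and 72226, 102145, 82719 and 75371 CPM in CryDKO at CT8, against 63024, 50642, 50509 and 35277 CPM in WT at CT16 and 33147, 35514, 39462 and 35688 CPM in WT at CT8. It rose by 1.21 ± 0.23 at CT8 and 0.83 ± 0.23 at CT16 (the quasi-likelihood test of edgeR, Benjamini-Hochberg adjusted p = 0.000693 and 0.0186). Ahsg, fetuin-A, rose by 0.96 ± 0.22, Rbp4, a retinol carrier, by 0.71 ± 0.18 and coagulation factor F12 by 0.84 ± 0.19 at CT8 (edgeR, Benjamini-Hochberg adjusted p = 0.00214, 0.00387 and 0.00188). At CT16 Rbp4 rose by 0.56 ± 0.18 (edgeR, Benjamini-Hochberg adjusted p = 0.032). Ahsg and F12 had 0.27 ± 0.22 and 0.30 ± 0.19 there and did not pass (edgeR, Benjamini-Hochberg adjusted p = 0.413 and 0.266). The summed level of 8 hepatocyte markers, some of them also negative acute phase genes, was 91486 to 147058 CPM in CryDKO at CT16 and 96217 to 133877 CPM in CryDKO at CT8, against 50913 to 88509.6 CPM in WT at CT16 and 48079 to 58392 CPM in WT at CT8. This sum separated the genotypes at both times, and its median was lowest in WT at CT8. Alb, given above, was by far its largest part. Of the 8 markers 5 were called higher and 0 lower by genotype at CT8, and 2 higher and 0 lower at CT16. Their median log2 changes were 0.83 and 0.25, and at CT16 6 of the 8 had a change above 0. The part of the hepatocyte share of the RNA in the changes of the 10 genes was not tested.

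**Figure D5:**
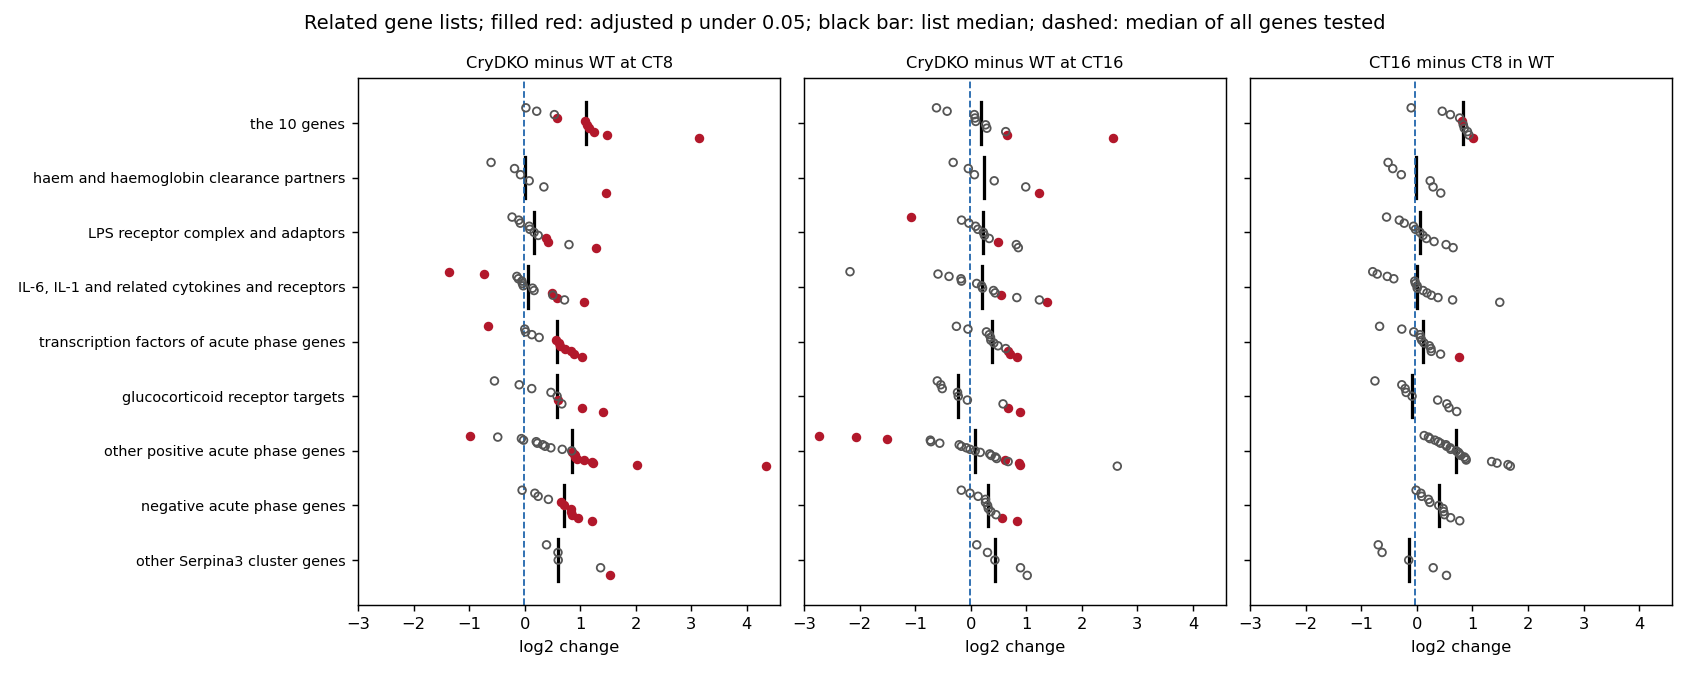
Log2 changes by genotype at CT8 and CT16 and between times in WT for the genes of each list (points, filled where called), with the list's median (black bar) and the median of all genes tested (dashed line). By genotype at CT8 the medians of the 10 genes (1.10), of other positive (0.85) and of negative acute phase genes (0.71) lie above 0.

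The scaling of libraries bears on all of these changes. TMM factors were 0.812 to 0.951 in CryDKO at CT16, 0.840 to 1.02 in CryDKO at CT8, 0.921 to 1.20 in WT at CT16 and 1.13 to 1.24 in WT at CT8. Scaled by library size alone, the median of all genes by genotype was -0.36 at CT8 and -0.16 at CT16, and between times in WT -0.29. Relative to the median of all genes, the median of the 10 genes stood at 1.11 at CT8 with this scaling and 1.12 with TMM, and in WT between times at 0.84 and 0.86. A change of scaling moves all genes of a library alike. This difference was therefore bound to stay nearly the same and is no test of the scaling. The split of calls over all genes moved with it: by genotype at CT8 961 genes were higher and 5127 lower with library size alone, against 2706 and 2943 with TMM, at CT16 605 genes were higher and 1883 lower against 1303 and 1326, and between times in WT 18 genes were higher and 354 lower against 179 and 188.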

How the data were processed

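Liver RNA was sequenced as 16 libraries in 4 groups of 4. Per the submitters' processing notes, FastQC, Trimmomatic 0.35, STAR 2.5.3, HTSeq 1.99.2, DESeq2 and the build GRCm39 (mm39) were used; the annotation, strand handling and settings are not stated in the sources used here. The deposited table holds counts, whole numbers of reads per gene, not normalized. Without the strand handling, reads of overlapping antisense genes cannot be told apart. Groups came from the column names. A second deposited table of normalized values was not used.

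The tests ran in edgeR 4.0.16 under R 4.3.3: filterByExpr, TMM and a robust quasi-likelihood fit of all 16 libraries with 1 coefficient per group. P values are two-sided and Benjamini-Hochberg adjusted over the 14484 genes tested, with a threshold of 0.05. SE values are approximate, the size of a log2 change over the root of its F statistic. Replicate pairs differed beyond counting noise, by chi-square, at 20.2 to 136 per degree of freedom over 24 pairs, so each library counted once. Alternatives were DESeq2 1.42.0, limma 3.58.1 voom, other scalings, no filter on low counts, no robust option, only the groups compared, paralogs summed and each library left out. Exon lengths of GENCODE M21 were matched by symbol. The procedure was tested on simulated data. Figures used Python 3.11.15 and matplotlib 3.10.9.

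The 10 genes, the lists of related genes and the markers were chosen with earlier results of these data known. Named from each list were the up to 4 genes with the lowest p and, where 5 or fewer passed, those; 3 nearest profiles were named per gene. Tlr4, Il6, Tnf and Mpo were named for their roles, after their values were seen.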

Additional observations from a re-analysis of the deposited data

Results flagged for a closer look

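Of 40 sets of 4 libraries checked (10 genes in 4 groups), 2 held a library whose gap to its nearest neighbour, divided by the group's range, exceeded Dixon's critical value for groups of that size; chance flags about 1 group in 20. Lbp in CryDKO at CT16 was 310.0 CPM in library 12 and 204 to 221 CPM in the other 3, a ratio of 0.838. Without library 12 the log2 change of Lbp by genotype at CT16 was -0.077, against 0.076 with it, and it was not called in either case. Cd14 in CryDKO at CT8 was 21.0 CPM in library 9 and 4.403 to 7.14 CPM in the other 3, a ratio of 0.835. Without library 9 its log2 change by genotype at CT8 was 2.40 (edgeR, Benjamini-Hochberg adjusted p = 1.68e-05), against 3.14 with it. By edgeR with all 16 libraries no interaction of genotype and time was called among the 10 genes. DESeq2 called Hpx, and without WT library 8 edgeR called Hpx and Lbp. Over all genes edgeR called 6 interactions, DESeq2 134, and the fits that left out 1 library 0 to 568.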

How the results depend on the processing

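No paired analysis was possible because the deposited columns carry a running number and not the replicate numbers of the labels. By genotype at CT8, 6 to 7 of the 10 genes were called under the other settings tried. Between times in WT the count of 2 became 6 with DESeq2, 5 with only the groups compared, and 0 with library size alone or without the robust option, where Crp and Lbp were lost; the counts over all genes were 367 and 1546 with DESeq2, 955 with voom, 663 with no filter and 712 with only the groups compared. By genotype at CT16 the count of 2 became 1 with library size alone and 1 with only the groups compared, where Serpina3m was lost. The interaction was called for 1 gene, Hpx, with DESeq2; over all genes it was called for 6, and for 134 with DESeq2, 1 with voom, 30 with no filter and 0 with library size alone. Between times in CryDKO the count over all genes was 0, and 14 with DESeq2 and 2 with no filter. With 1 library left out, members called numbered 0 to 6 between times in WT, 0 to 0 in CryDKO, 6 to 7 by genotype at CT8, 1 to 2 at CT16 and 0 to 2 for the interaction; all genes called numbered 0 to 3580, 0 to 3, 4274 to 6112, 1821 to 2742 and 0 to 568 in the same order. The cause of these shifts was not tested.

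Log2 changes that turned sign were all of genes not called. With library size alone they were -0.16 for Orm1 and -0.33 for Orm3 by genotype at CT8, -0.048 for Hpx, -0.056 for Crp and -0.029 for Lbp at CT16, and -0.047 for Lbp between times in CryDKO, where only the groups compared gave -0.0099. Voom gave -0.61 for Orm3 at CT8 and -0.11 at CT16. The orosomucoid sum, in place of Orm3, gave -0.19 between times in CryDKO, -0.44 by genotype at CT16 and -0.69 for the interaction. Orm3 had 0.22 to 3.04% as many reads as Orm1, so this sum says little about Orm3 itself. With 1 library left out the ranges were -0.28 to 0.19 for Hp, -0.42 to 0.0032 for Hpx, -0.40 to 0.29 for Orm1, -0.22 to 0.14 for Lbp, -0.92 to 0.087 for Cd14, -0.035 to 0.37 for Serpina3m and -0.18 to 0.53 for Serpina3n between times in CryDKO, -0.20 to 0.048 for Cd14 between times in WT, -0.25 to 0.44 for Orm1 and -0.73 to 0.38 for Orm3 by genotype at CT8, -0.074 to 0.27 for Hpx, -0.42 to 0.58 for Orm3, -0.10 to 0.20 for Crp and -0.13 to 0.22 for Lbp at CT16 and -0.45 to 0.999 for Orm3 and -0.83 to 0.15 for Cd14 for the interaction. Depth limits Cd14 in WT most, at 20 to 35 reads per library.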

Other observations

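The feedback inhibitor Socs3, a direct STAT3 target, was chosen after its values were seen. It had 205 CPM in CryDKO library 12 at CT16, the library with the highest Lbp of its group, and 12.3 to 47.0 CPM in the other 15 libraries. The same library had 5843 CPM of Serpina3n, the highest of its group, and 38.6 CPM of Orm3, below the 71.9 CPM of library 14. Its Hp and Hpx, at 15161 and 13093 CPM, also lay below the 18495 and 18118 CPM of library 14. Of Saa1 library 12 had 834 CPM, the lowest of its group. Saa1, a strongly inducible acute phase gene, was also read after the fact. It had 1802, 834, 1073 and 3084 CPM in CryDKO at CT16 and 728, 2884, 7214 and 3797 CPM in CryDKO at CT8, against 5609.7, 9304, 6995 and 6593 CPM in WT at CT16 and 1861, 2048, 2007 and 3231 CPM in WT at CT8. By genotype its log2 change was -2.07 ± 0.54 at CT16 (edgeR, Benjamini-Hochberg adjusted p = 0.0167) and 0.68 ± 0.52 at CT8 (edgeR, Benjamini-Hochberg adjusted p = 0.319), while Hp and Hpx did not pass at CT16 and were higher in CryDKO at CT8.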
